A study of Homo sapiens with 2 samples.

Results

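To locate the RNAs bound by MTR4, an RNA helicase, RIP-seq, the sequencing of RNA pulled down with a protein by an antibody, was performed in PLC/PRF5 cells, an established line of hepatocellular carcinoma. Of the 3302 peaks listed on chromosomes 1 to 22 and X of hg19, 301 lay near the start of a protein-coding gene, a share of 9.12% (Wilson 95% interval 8.18 to 10.1). A peak was taken as a start-site peak when its midpoint fell within 1000 bases, on either side, of the 5′ end of the canonical transcript of a protein-coding gene in GENCODE release 44 mapped to GRCh37, which is the same build as hg19. Neither the score nor the strand of the list entered this choice. The series holds 2 libraries, 1 pulled down with anti-HA and 1 with IgG, although the latter is titled as an input. Both came from PLC/PRF5 cells that overexpressed MTR4 carrying an HA tag from a plasmid, so the protein was above its natural level in the control as well as in the anti-HA library. Nuclear pellets were lysed by sonication before the antibody was added. The peak list belongs to the anti-HA library, no replicate exists, and the IgG library was not analysed here, so no value below compares MTR4 with IgG. The list gives no read count or enrichment for a peak, hence the depth behind each peak is unknown. Intervals and tests below cover counting within this list only, and peaks are not replicates of a condition.

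MTR4 unwinds RNA and feeds it to the nuclear exosome, a ring of proteins with nucleases that digests RNA from its 3′ end. Together with the adaptor proteins ZCCHC8 and RBM7 it is known for removing short-lived RNAs made around promoters. These include promoter upstream transcripts, which run away from the gene on the opposite strand, and short transcripts that end soon after the start of the gene. Many human promoters sit in CpG islands, stretches in which the dinucleotide CpG is not depleted as it is elsewhere in the genome. The list marks every peak as plus strand, so RNA from the gene and RNA from the opposite strand cannot be told apart.

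The position of the start-site peaks is shown first by the starts that lie nearest to a peak midpoint. The 10 nearest midpoints were between 2 and 18 bases from a start. They belonged to PI4KA, a phosphatidylinositol kinase, GSK3B, a kinase of glycogen metabolism and Wnt signalling, INTS14, a subunit of the Integrator complex, POGLUT1, which adds glucose to Notch, NR2C2, a nuclear receptor, TRIM71, a ubiquitin ligase of stem cells, AZI2, an adaptor of the kinase TBK1, ECT2, an exchange factor needed for cytokinesis, CIP2A, an inhibitor of the phosphatase PP2A, and the read-through gene ARHGAP11A-SCG5. Their midpoints lay at -2, -7, 8, -9, 11, 12, 14, -15, -16 and -18 bases in that order, where negative values are upstream of the start in the direction of the gene. The 30 bases of hg19 across each of these starts are printed 5′ to 3′ on the strand of the gene, with the start base in capitals.
PI4KA, chr22:21213085-21213114, minus strand: cgtggcgggaaagccGgatgcacctacgcc
GSK3B, chr3:119813280-119813309, minus strand: cagacagcgctcctcAcacagagcagctcc
INTS14, chr15:65903455-65903484, minus strand: gccgacggaaagtttAtgccgacggactgt
POGLUT1, chr3:119187795-119187824, plus strand: tcccgggccatctttGtgcggggccgcgct
NR2C2, chr3:14989075-14989104, plus strand: tgggaagaggaagaaGaacattcgccctcc
TRIM71, chr3:32859474-32859503, plus strand: ctgagtgagtcggtgActcccccacccacc
AZI2, chr3:28390301-28390330, minus strand: tgcctcggctcgtccCtccttccagaacgt
ECT2, chr3:172468501-172468530, plus strand: ttgacatcacgcgccAatcggcatggctct
CIP2A, chr3:108308271-108308300, minus strand: caaaaaaagcgcggcGaaagctaaaggccg
ARHGAP11A-SCG5, chr15:32907634-32907663, plus strand: aggagtggaccaatcAgatgtggagcgctg

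The base at the start was A at 5 of these 10 genes, G at 4 and C at 1. Since positions on 4 of the chromosomes with most peaks step by 100 bases and those on chromosome 15 by 105, a distance is known only to about the width of such a step.

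The composition of the peaks is shown by peaks that hold no annotated exon in their middle 300 bases. RRP9, a protein of the U3 small nucleolar particle, and MYNN, a zinc finger protein, have upstream peaks with no annotated transcript at the midpoint. At -181 and -183 these lie nearest the start among such peaks that also meet the exon condition, and nearer ones that do not meet it are named below. Among first-intron peaks that meet the exon condition, those of GOLGA8A, of a golgin family with near-identical copies, and ADAM10, a membrane protease, have the most CpG. Of the same peaks, that of SFR1, a recombination factor, has the fewest. Each CpG is in capitals.
RRP9, chr3:51975952-51976251, minus strand: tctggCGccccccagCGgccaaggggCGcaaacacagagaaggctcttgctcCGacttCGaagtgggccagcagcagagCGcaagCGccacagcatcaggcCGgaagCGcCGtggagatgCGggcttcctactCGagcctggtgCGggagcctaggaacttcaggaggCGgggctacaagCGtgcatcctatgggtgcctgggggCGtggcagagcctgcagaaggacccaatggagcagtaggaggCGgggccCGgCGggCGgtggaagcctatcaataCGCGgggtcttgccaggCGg
MYNN, chr3:169490852-169491151, plus strand: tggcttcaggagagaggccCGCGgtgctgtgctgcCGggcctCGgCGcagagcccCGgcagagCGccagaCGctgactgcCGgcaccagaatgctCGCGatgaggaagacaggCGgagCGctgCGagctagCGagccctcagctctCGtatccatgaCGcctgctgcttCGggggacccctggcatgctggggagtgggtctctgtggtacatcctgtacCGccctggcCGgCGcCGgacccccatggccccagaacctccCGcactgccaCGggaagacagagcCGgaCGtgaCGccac
GOLGA8A, chr15:34729232-34729531, minus strand: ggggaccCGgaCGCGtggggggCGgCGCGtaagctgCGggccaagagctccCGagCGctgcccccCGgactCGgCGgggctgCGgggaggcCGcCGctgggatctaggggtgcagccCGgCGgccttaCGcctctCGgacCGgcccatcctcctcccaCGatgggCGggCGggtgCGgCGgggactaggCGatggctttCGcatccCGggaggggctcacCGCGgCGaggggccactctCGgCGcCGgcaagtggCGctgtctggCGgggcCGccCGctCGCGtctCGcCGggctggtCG
ADAM10, chr15:59041247-59041546, minus strand: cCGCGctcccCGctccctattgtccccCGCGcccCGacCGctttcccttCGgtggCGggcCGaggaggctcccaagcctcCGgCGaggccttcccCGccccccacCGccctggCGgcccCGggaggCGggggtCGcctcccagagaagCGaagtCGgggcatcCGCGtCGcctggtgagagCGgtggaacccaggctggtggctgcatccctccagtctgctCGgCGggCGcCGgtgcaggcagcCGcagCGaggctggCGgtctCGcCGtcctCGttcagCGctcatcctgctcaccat
SFR1, chr10:105882352-105882651, plus strand: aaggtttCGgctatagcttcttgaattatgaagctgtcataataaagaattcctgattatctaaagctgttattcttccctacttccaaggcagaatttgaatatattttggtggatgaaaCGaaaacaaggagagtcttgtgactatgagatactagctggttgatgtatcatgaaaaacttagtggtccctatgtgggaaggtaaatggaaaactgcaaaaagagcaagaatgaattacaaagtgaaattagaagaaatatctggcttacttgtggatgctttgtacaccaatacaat

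Most start-site peaks lay just inside the gene. The midpoint was at or downstream of the start in 232 of 301 peaks (77.1%, interval 72.0 to 81.5) and upstream of it in 69 (22.9%, 18.5 to 28.0). The median distance was 185 bases downstream, with quartiles at 27.0 and 387 bases, and the full range ran from -962 to 988. The first 400 bases of the gene held 159 midpoints (52.8%), against 47 (15.6%) in the 400 bases upstream. Thus the side of the start, which the symmetric rule did not use, was uneven, and the excess lay close to the start.

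**Figure D1:**
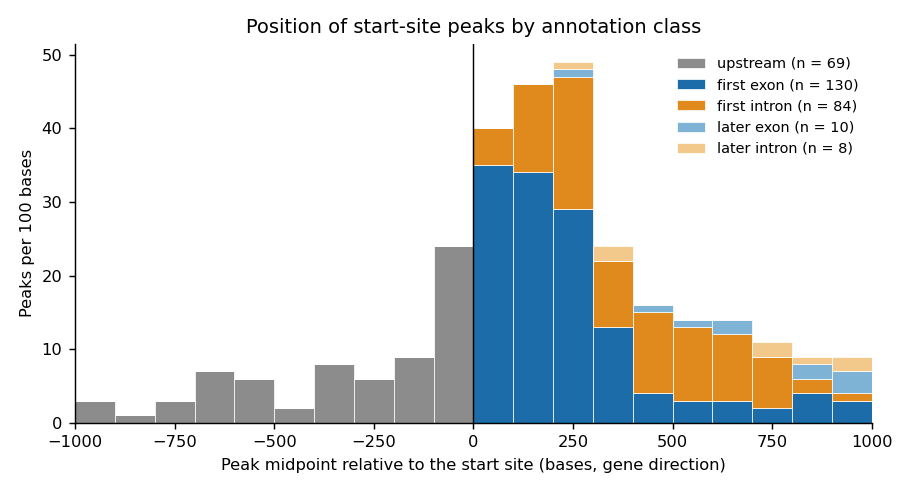
Number of start-site peak midpoints per 100 bases by distance from the start site in bases, coloured by where the midpoint falls on the canonical transcript. Of the 301 peaks, 130 fall in the first exon and 84 in the first intron, and 69 lie upstream.

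A wider view gave the level around the window. From 5000 to 1000 bases upstream of the nearest start, 78 peaks made a mean of 4.88 per 250 bases. This rose to 17.2 within 1000 bases upstream and to 87.5 in the first 500 bases of the gene. From 1000 to 5000 bases downstream it was 14.9, made of 239 peaks. The highest bin was the first 250 bases of the gene with 115 peaks. Bases within 1000 of a start make up 1.22% of the sequenced bases of the 6 chromosomes that hold nearly all peaks, and 299 of their 3292 peaks (9.08%) had a midpoint there, a ratio of 7.43.

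**Figure D2:**
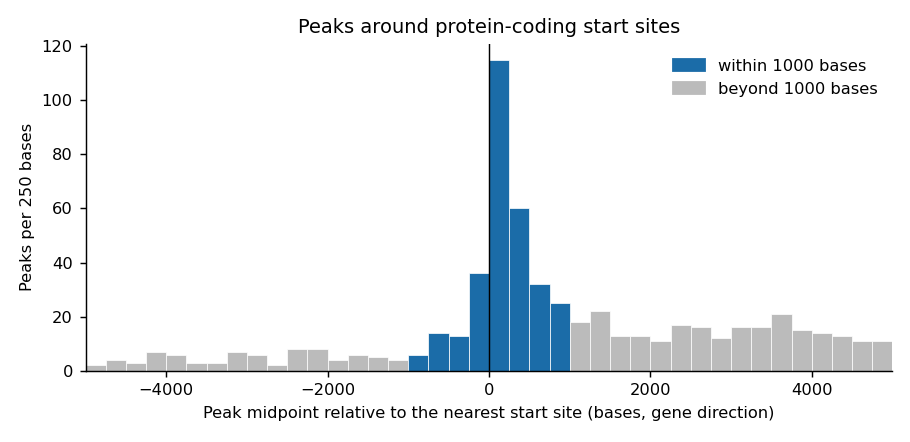
Peaks per 250 bases from 5000 bases upstream to 5000 bases downstream of the nearest protein-coding start site. The bin of the first 250 bases holds 115 peaks, and the level is higher beyond the window on the gene side than on the upstream side.

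Every peak in the list is 400 bases wide, so a peak can reach past its midpoint. The start base itself was inside 119 peaks (39.5%, 34.2 to 45.2). The first 5′ splice site, where the first exon ends, was inside 139 of the 292 peaks at genes with an intron (47.6%, 41.9 to 53.3). Both were inside 84 peaks (28.8%), and 127 of 301 peaks (42.2%) held neither. By midpoint on the canonical transcript, 130 peaks were in the first exon (43.2%), 84 in the first intron (27.9%), 10 in a later exon (3.32%) and 8 in a later intron (2.66%). By bases, the peaks were on average 25.8% upstream, 37.8% first exon and 30.2% first intron. When every annotated transcript was allowed, the midpoint was exonic in 211 peaks (70.1%), intronic in 74 (24.6%) and in no transcript in 16 (5.32%). The first exon was longer where the midpoint fell in it, with a median of 352 bases, than where the midpoint fell in the first intron, with a median of 141. A midpoint can lie in the first exon only where that exon reaches it, so the classes themselves favour this order.

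The first 5′ splice sites inside the peaks nearly all began with the usual bases. The intron began with GT in 138 of 139 and with GC in 1. GTGAGT was the most frequent beginning, at 33 sites (23.7%), followed by GTGAGG at 17 (12.2%), and GTAAGT was found at 6 (4.32%). Over all genes of the 6 chromosomes with an intron, GTGAGT began the first intron in 77 of 331 genes with a start-site peak (23.3%, 19.0 to 28.1) and in 720 of 3817 without (18.9%, 17.7 to 20.1). GTAAGT began it in 17 (5.14%, 3.23 to 8.07) and 384 (10.1%, 9.15 to 11.1). These shares were not tested. The splice sites inside peaks of 5 cell cycle genes and RPL4 are printed with 10 exon bases and 20 intron bases, the first 6 intron bases in capitals.
CCNB2, chr15:59397482-59397511, plus strand: acgcccgacgGTGAGTgtgcccggggaccg
CDC25A, chr3:48229248-48229277, minus strand: gtctgggcagGTAAGGagagaccggcgggc
PCNA, chr20:5100204-5100233, minus strand: acctcaccagGTGAGCctcgcggccccggg
RPL4, chr15:66797106-66797135, minus strand: ctccgccatgGTGAGTggaagttctcttgg
STAG1, chr3:136471017-136471046, minus strand: ggcagctgagGTGAGTgcgggcggcggcga
TFDP2, chr3:141868005-141868034, minus strand: gccgaaggcgGTAAGGtctggggcgagggc

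The upstream peaks were then sorted by what the annotation holds at their midpoint. Another transcript of the same gene, with an earlier start, was present at 25 of 69 (36.2%), for example at PI4KA, GSK3B and ECT2. Another gene on the opposite strand was present at 19 (27.5%), of which 14 were noncoding and 5 coding. Another gene on the same strand was present at 9 (13%), and no annotated transcript at 16 (23.2%). Of the 69, 33 covered the start base and 36 did not.

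Upstream peaks over opposite-strand genes had coding or noncoding partners. The 5 with a coding partner, named after their values were seen, were TMA7 at -66 over CCDC51, NKTR at -177 over SEC22C, RANBP1 at -226 over TRMT2A, DNAJB7 at -284 over XPNPEP3 and RPP25 at -713 over SCAMP5. Among the 14 noncoding ones, also chosen after their values were seen, were TBC1D22A at -246 over TBC1D22A-DT, UBL7 at -515 over UBL7-DT, ZBTB11 at -625 over ZBTB11-AS1 and TFIP11 at -962 over TFIP11-DT. The 14 were mixed. They also held GSTA4 at -529 over the small RNA gene RN7SK, and PARP2 at -311 over a gene named only by an Ensembl identifier. The strand of the RNA at these peaks is not given by the list.

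Upstream peaks with no annotated transcript lay close to the start in most cases. The 5 nearest were POGLUT1 at -9, RYBP, a Polycomb protein, at -29, VPS13C, a lipid transfer protein, at -30, GCAT, an enzyme of glycine metabolism, at -40 and LPCAT4, an acyltransferase, at -54. In 13 of the 16 the peak also covered the start, so its downstream bases lay in the gene. Only 3 of the 16 had no annotated transcript in any base, and these were USP3 at -681, CELSR3 at -682 and TNFRSF13C at -791, named after their values were seen.

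The start-site peaks were rich in G and C and in CpG. Median GC content was 67.5% (range 34.5 to 84.8), and the median ratio of observed to expected CpG was 0.81. Peaks in first introns beyond 1000 bases from the start had medians of 43.8% and 0.22. The other 3001 peaks as a whole had 43.2% and 0.22. A start-site peak held a median of 36.0 CpG, between 1 and 78, against 4.00 in other peaks.

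**Figure D3:**
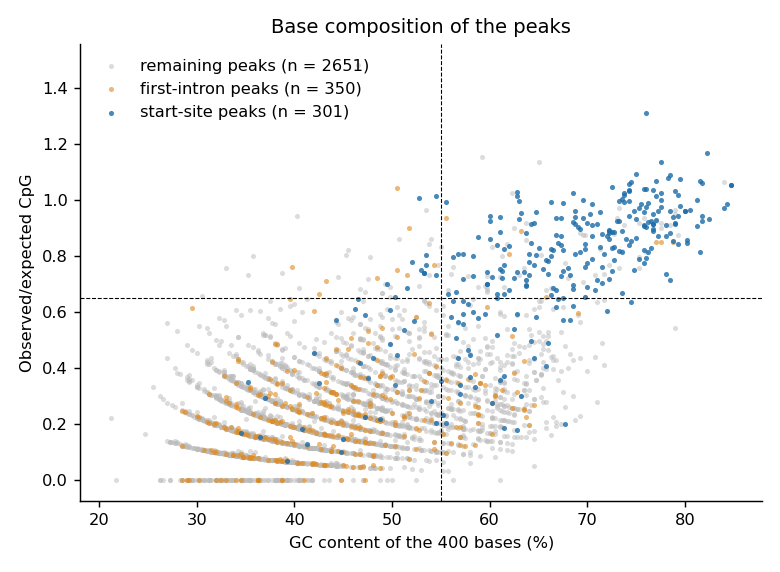
GC content in percent against the ratio of observed to expected CpG for the 400 bases of each of the 301 start-site peaks, 350 first-intron peaks and the remaining peaks. Dashed lines mark 55% GC and a ratio of 0.65, and 218 start-site peaks lie above both.

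A peak was called CpG-rich at 55% GC or more and a ratio of 0.65 or more. This held for 218 of 301 start-site peaks (72.4%, 67.1 to 77.2), for 65 of 3001 other peaks (2.17%) and for 7 of 350 first-intron peaks (2.00%). By Fisher's exact test, two-sided, with Benjamini-Hochberg adjustment over 11 tests, start-site peaks differed from the other peaks (adjusted p = 5.09e-207) and from the first-intron peaks (adjusted p = 5.34e-91). The rule chose start-site peaks by position, and start sites are often CpG-rich whether or not they hold a peak, as the windows below show. These tests therefore cannot tell the peaks from start sites in general. The CpG-rich share of the start-site peaks followed the position. It was 84.8% of the 33 peaks in the 200 bases upstream of the start, 88.4% of the 86 in the first 200 bases of the gene and 83.6% of the 73 in the next 200. It was 55.6% of the 18 peaks from 800 to 1000 bases downstream. First-exon peaks were CpG-rich in 111 of 130 (85.4%), first-intron ones within the window in 56 of 84 (66.7%) and upstream ones in 41 of 69 (59.4%).

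Start sites in general gave the level beside which this is read. Among 19818 windows of 400 bases centred on the start of a protein-coding gene, 63.6% were CpG-rich (62.9 to 64.2). On the 6 chromosomes the windows of the 341 genes with a start-site peak were CpG-rich in 87.7% (83.8 to 90.8), those of genes without in 67.0% (65.5 to 68.4), and those of the 1072 genes that had no start-site peak but a peak elsewhere in 84.7% (82.4 to 86.7). The intervals of the first and last of these overlap. Windows centred 185 bases downstream of the start, the median distance of the peaks, were CpG-rich in 59.8% over all genes (59.1 to 60.5). On the 6 chromosomes they were so in 81.2% of genes with a start-site peak (76.7 to 85.0) and 62.7% of those without (61.2 to 64.2). Genes with a peak only elsewhere had 79.6% (77.1 to 81.9). The peaks themselves, at 72.4%, were thus below the windows of their own genes.

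Of the motifs searched on the strand of the gene, the study's CCA motif, whose notation can be read in more than 1 way and was searched as CCACC or CCAGC or CCATC, occurred in 251 start-site peaks (83.4%) and in 2074 of 2876 other peaks within genes (72.1%, adjusted p = 2.76e-05, Fisher's exact test). First-intron peaks held it in 253 of 350 (72.3%, adjusted p = 9.84e-04), but the difference was lost against first-intron peaks up to 5000 bases from the start (76.5%, p = 0.192) and without chromosome 3 (p = 0.0532, Fisher's exact test in each). The same motif was in 83.0% of all start windows (82.5 to 83.5), close to its share in start-site peaks. Read as CCAG, then C, G or T, then C, the motif was in 50.8% of start-site peaks, 42.5% of other peaks (p = 0.00594, Fisher's exact test) and 55.7% of all start windows. Under this reading the difference from first-intron peaks was lost (43.7%, p = 0.0708 by the same exact test).

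The motifs rich in A were scarce. The poly(A) signal hexamer AATAAA occurred in 15 start-site peaks (4.98%), against 613 other peaks (21.3%, adjusted p = 9.32e-14, Fisher's exact test) and 72 first-intron peaks (20.6%, adjusted p = 3.77e-09). All start windows held it in 6.55% (6.22 to 6.91), and windows centred 185 bases downstream in 4.85% (4.56 to 5.16). The 5′ splice site hexamer GTAAGT occurred in 12 start-site peaks (3.99%), 304 other peaks (10.6%, adjusted p = 1.60e-04) and 29 first-intron peaks (8.29%, adjusted p = 0.0377), and without chromosome 3 the last difference was lost (p = 0.203, all by Fisher's exact test). In all start windows it was present in 6.92%, and in windows centred 185 bases downstream in 8.93% (8.54 to 9.33).

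The study's poly(A)-like motif, made mostly of A, occurred in 2 start-site peaks (0.664%, 0.182 to 2.39), in 92 other peaks (3.20%, adjusted p = 0.0131, Fisher's exact test) and in 10 first-intron peaks (2.86%, adjusted p = 0.0432). With so few matches the result depended on the peaks used: among start-site peaks that do not cover the start it was 1.10%, with p = 0.124 against other peaks and 0.235 against first-intron peaks, and without chromosome 3 it was 0.562%, with p = 0.0559 and 0.0844 by the same exact test. All start windows held it in 0.439% (0.356 to 0.541). The match at OSBPL11, a lipid-binding protein, is printed in capitals with the bases around it.
OSBPL11, chr3:125313702-125313731, minus strand: atcaaatctTAAAAAAAAAAAgtcacctac

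GC content differed between the same groups, at a median of 67.5% in start-site peaks and 43.2% in other peaks, and its part in the differences of the motifs was not tested.

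**Figure D4:**
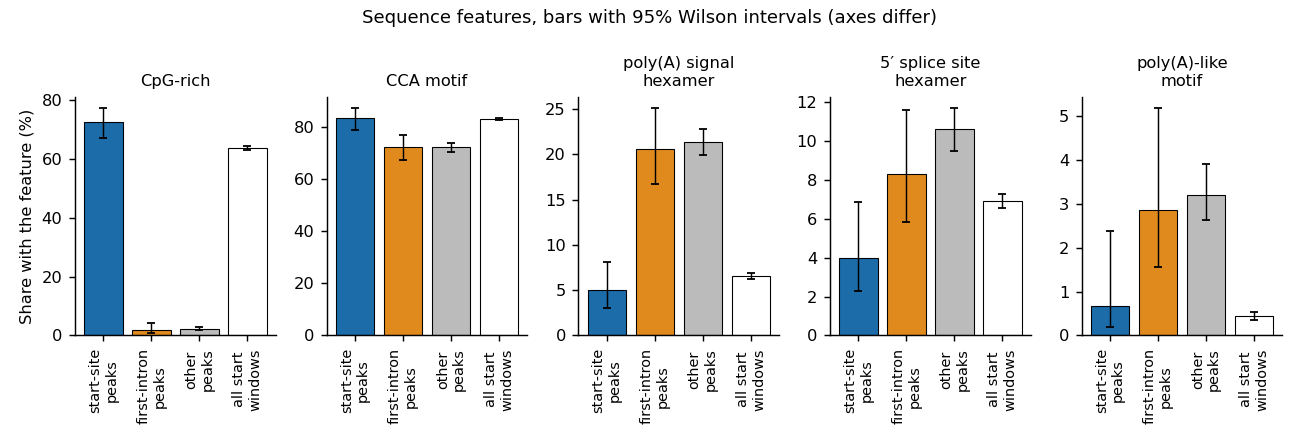
Share of start-site peaks, first-intron peaks beyond 1000 bases, other peaks and 400-base windows on all start sites that hold each sequence feature, in percent with Wilson 95% intervals. Start-site peaks lie near the start windows for the CCA motif, at 83.4% and 83.0%, and far from other peaks for CpG-rich sequence.

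A start-site peak was often not the only peak of its gene. Another peak more than 1000 bases from the start lay in the gene for 194 of 301 start-site peaks (64.5%, 58.9 to 69.6), against 302 of 350 first-intron peaks (86.3%; adjusted p = 1.81e-10, Fisher's exact test). The genes of first-intron peaks were longer, with a median of 90086 bases over 198 genes against 33754 over 299, and several such peaks can share a gene. In genes longer than 20000 bases the shares were 76.6% and 88.9% (p = 2.99e-04, Fisher's exact test). In both comparisons, first-intron peaks of the same gene count each other as the other peak. Start-site peaks of the same gene cannot, so part of the difference is built in. Peaks that share a gene are also not independent, as the exact test assumes, so these p-values cannot be read as a difference between kinds of peak. Of the 1397 genes on the 6 chromosomes that any peak overlapped, 324 had a start-site peak (23.2%, 21.1 to 25.5). Of the 341 genes with a start-site peak, 123 (36.1%) held no peak beyond the window.

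Among the start-site genes with the most other peaks were long ones. UNC13C, which primes synaptic vesicles, held 22 others over 650508 bases, of which 17 were in later introns, and its start-site peak lay at 83. LPP, a focal adhesion protein, held 11, all in later introns, TBC1D22A held 10 and VPS13C 9.

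Of 40 peaks near more than 1 start, 36 lay near 2 starts and 4 near 3. Opposite-strand starts were involved in 26, and 14 involved starts on the same strand only. Read-through genes or genes named only by an Ensembl identifier were part of 14. Divergent pairs that shared a peak included RPL4 and ZWILCH at 77 and -548, TMA7 and CCDC51 at -66 and -72, TMEM43 and CHCHD4 at 49 and -231, CIP2A and DZIP3 at -16 and -268, and OXNAD1 and DPH3 at -118 and -151. Only CELSR3, at -682 and 918, and CMTM8, at -671 and 829, had 2 start-site peaks. The share of genes with another coding start facing away within 1000 bases was 17.3% of the 341 genes with a start-site peak (13.7 to 21.7) and 8.32% of the 3968 without (7.50 to 9.22). A shared peak counts for both genes of a pair, and when each peak counted for its nearest gene alone the share was 9.76% (6.88 to 13.7).

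The build of genes with and without a start-site peak was compared by medians. On the 6 chromosomes, median gene length was 33754 and 34718 bases, the first exon 199 and 183 bases, the first intron 3767 and 4419 bases, and the number of exons 9 in both. Genes without a start-site peak but with another peak were longer, at 53829 bases, with 11 exons. These are descriptions without a test.

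By gene, 343 of 19819 protein-coding genes with a canonical transcript had a start-site peak, or 1.73%. On the 6 chromosomes this was 341 of 4309, or 7.91%, the level beside which the groups below are read. The groups are small, and their shares were not tested. Cell cycle genes had a start-site peak at 7 of the 31 on these chromosomes (22.6%). GSK3B lay at -7, EP300, an acetyltransferase, at -95, CCNB2, a mitotic cyclin, at 106, TFDP2, a partner of E2F, at 185, PCNA, the replication clamp, at 203, STAG1, a cohesin subunit, at 219 and CDC25A, a phosphatase that activates cyclin-dependent kinases, at 606. Their GC content ran from 62.0% at PCNA to 76.8% at EP300. Of the 31 genes, 17 held a peak anywhere in the gene (54.8%), beside 32.4% of all genes on the 6 chromosomes.

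Ribosomal protein genes had 4 of 13 (30.8%), RPL4 at 77, RPLP1 at 464, RPL3 at 527 and RPL32 at 563. On the canonical transcript all 4 midpoints were in the first intron. When every annotated transcript was allowed, the midpoint was exonic at RPLP1, RPL3 and RPL32 and intronic at RPL4. Mitochondrial ribosomal proteins had 2 of 14 (14.3%), MRPS24 at 268 and MRPL40 at -467, the latter by a peak nearer to HIRA. Zinc finger genes had 10 of 89 (11.2%), the nearest being ZNF621 at -50, ZNF518A at -53 and ZNF639 at 82. Splicing factors had 2 of 18 (11.1%), RBFOX2 at 371 and SNRPD3 at -566, the latter by a peak nearer to GUCD1. Solute carriers had 4 of 76 (5.26%), SLC6A6 at 95, SLC29A3 at 185, SLC35G2 at 233 and SLC30A4 at 512.

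No start-site peak was found at the 4 exosome and adaptor genes on the 6 chromosomes, the 8 proteasome genes, the 7 glycolysis genes or the 19 liver secreted protein genes. A peak anywhere in the gene was present at 1, 2, 3 and 5 of these, beside 1397 of all 4309 genes on the 6 chromosomes (32.4%, 31.0 to 33.8). PKM, the pyruvate kinase gene the study is about, had its nearest peak 8640 bases downstream of its start. SLC2A1, the gene of the glucose transporter GLUT1, and MTREX, the gene of MTR4, lie on chromosomes with no peak in the list. The study reported binding of MTR4 to introns of both PKM and GLUT1 by RIP with RT-qPCR. Some primers of the study for RIP were named after numbered RIP peaks in introns, so that assay was not separate from the peaks. The qPCR measurements themselves are not part of this list, and whether it holds those numbered peaks is not reported here.

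Small noncoding RNA genes lay inside 4 start-site peaks (1.33%, 0.518 to 3.37) and 9 of 3001 other peaks (0.30%, 0.158 to 0.569). They were SNORD43 at RPL3, MIR1281 at EP300, AL391839.1 at EPC1 and RN7SK, the 7SK RNA that holds the elongation factor P-TEFb inactive, upstream of GSTA4. RN7SK has many near-identical copies in the genome, so the placement of reads there is uncertain. The annotation used here may lack some small RNA genes, also at the PARP2 peak below, so these counts may be too low. The peak near GSTA4, on chromosome 6, and a peak 311 bases upstream of PARP2, on chromosome 14, over a noncoding gene of the opposite strand, were the only start-site peaks outside the 6 chromosomes.

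The number of start-site peaks followed the chromosome. Chromosome 3 held 123 of the 301, chromosome 15 69, chromosome 22 47, chromosome 10 40, chromosome 20 13 and chromosome 7 7. As a share of the chromosome's peaks these were 9.63, 8.44, 8.29, 7.75, 16.9 and 18.9%, where the last pair rest on 77 and 37 peaks and have intervals of 10.1 to 26.8 and 9.48 to 34.2. As a share of its genes they were 13% on chromosomes 3 and 15 and 12.6% on 22, then 6.40% on 10, 2.56% on 20 and 0.760% on 7. The share downstream was 61.7% on chromosome 22 and between 78.0 and 100% on the others. Why so few chromosomes hold peaks was not tested.

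**Figure D5:**
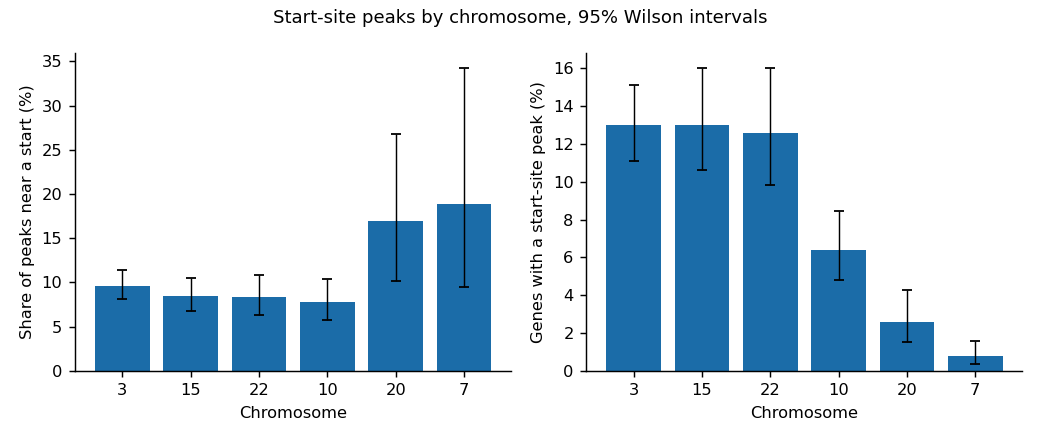
Left, share of each chromosome's peaks that lie near a start, and right, share of its protein-coding genes with a start-site peak, in percent with Wilson 95% intervals. The share of genes is 13% on chromosomes 3 and 15 and 0.760% on chromosome 7.

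Few peaks lay near the limit of 1000 bases upstream, with 6 in the last 250 bases inside it and 4 in the next 250 outside. More lay near it downstream, with 25 and 18, and a window of 2000 bases held 387 peaks. The farthest upstream members were TFIP11 at -962, NDUFAF3 at -953, FASTK at -937, CALML4 at -866 and SUN2 at -798, and among the farthest downstream were TSSK2 at 980, WDR6 at 977, CENPM at 955 and CELSR3 at 918. Just outside were NRP1 at -1006, CHKB-CPT1B at -1020 and ITGB1 at -1043, and ELP6 at 1001, SUN2 at 1002 and CTNNB1 at 1005. Counting the start of any protein-coding transcript in place of the canonical one gave 486 peaks and a downstream share of 66.9%.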

How the data were processed

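PLC/PRF5 cells overexpressing MTR4-HA were used for RIP with anti-HA or IgG, 1 library each. Per the methods of the study, the authors mapped reads to hg19 with TopHat 2.0.13 and called peaks with RIPSeeker, whose settings and use of the IgG library are not given in the sources used here. The deposited list holds peak positions and a score, which was 60 at every start-site peak, was taken as no measure of enrichment and was not used. Positions count from 1, and the midpoint was the listed start plus 200.

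Positions were joined with GENCODE release 44 on GRCh37 in Python 3.11.15 with numpy 2.4.6. Gaps under 20 bases between exons were not treated as introns. A peak near several starts was assigned to the nearest. Other peaks outside genes have no strand and were left out of motif searches. Shares have Wilson 95% intervals and tests are two-sided Fisher's exact tests (scipy 1.17.1) with Benjamini-Hochberg adjustment. The exact test was run on simulated peaks that were independent of each other. Real peaks can share a gene, which the simulation did not cover. The p-values of alternatives are not adjusted. Genes were named by rule: the 10 nearest starts, the 5 farthest on each side and 3 just outside, genes with 2 or more peaks, pairs sharing a peak, members of the gene lists (the 3 nearest for lists over 10), the 5 with most other peaks and the 5 nearest upstream peaks without a transcript. Some items that the rule names are not reported here. The members, gene lists and tests were chosen with earlier results of these data known.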

Additional observations from a re-analysis of the deposited data

How the results depend on the processing

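Of 62 alternatives, 46 were called the same, 9 weaker and 7 moved. For a test, the same meant the same direction and the same side of the threshold, and no test reversed direction. Counts and shares have no threshold, and 482 genes with any transcript start, beside 343, was still called the same. Leaving out names listed at 2 positions removed no start-site peak, so those alternatives could not differ. The number of start-site peaks was 486 with the start of any protein-coding transcript and 178 without chromosome 3, which also left 203 genes. Any transcript start moved the downstream share to 66.9% and the share covering the start to 48.8%, and the latter was 53.1% within 500 bases and 30.7% within 2000, as the window sets it. Against first-intron peaks up to 5000 bases from the start, the tests lost the CCA motif (83.4%, p = 0.192) and the poly(A)-like motif (0.664%, p = 0.199), by Fisher's exact test. Leaving out chromosome 3, with fewer peaks tested, lost against first-intron peaks the CCA motif (83.1%), GTAAGT (3.93%) and the poly(A)-like motif (0.562%), the last also against other peaks. With peaks that do not cover the start, the poly(A)-like motif (1.10%) was lost in both comparisons. The longer reading of the CCA motif (50.8%) lost it against first-intron peaks. The cause was not tested. That reading, first-intron peaks up to 5000 bases and a midpoint counted from 1, which gave 302 peaks, were added after seeing the data, as was the count without Ensembl-only and read-through names, 325 genes. No paired analysis was possible because the list comes from a single library, with 1 for each antibody. The depth is unknown, so an absent peak does not show that the RNA was unbound.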
